A study of Sus scrofa with 12 samples.

Results

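The genes described here are the calgranulins S100A8, S100A9 and S100A12 and the protease MMP9, measured in pig coronary arteries that had carried a stent. They were taken as every probe set of the array whose only annotated gene symbol is one of these 4 names. Each gene had 1 such probe set, so they are 4 of the 24123 probe sets in the file and 4 of the 6765 genes named by a single symbol. All 4 passed the filter on low signals that left 16799 probe sets for testing.

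S100A8 and S100A9 are small calcium-binding proteins that pair into calprotectin, which fills the cytosol of neutrophils and of young monocytes and withholds zinc and manganese from microbes. S100A12, known from human and pig and missing from the mouse, is the third calgranulin and is likewise abundant in neutrophils. Outside the cell the calgranulins act as alarm signals through the receptors TLR4 and AGER, and both are known to drive NF-κB. MMP9 (gelatinase B) is secreted as an inactive proenzyme and cleaves gelatin, basement membrane collagen and elastin. It is stored in neutrophil granules, and macrophages, osteoclasts and smooth muscle cells can also make it.

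Arteries of Yorkshire farm pigs were collected 28 days after angioplasty and stent implantation, and total RNA of the tissue dissected from each stent was measured. The 3 groups were a zotarolimus-eluting stent (ZES), a sirolimus-eluting stent (SES) and a bare metal stent (BMS), each with 4 artery segments from 2 pigs, which makes 12 arrays from 6 pigs. The series title speaks of overlapping drug-eluting stents and of inflammation and matrix genes. Sirolimus blocks mTOR signalling, which drives cell growth, and zotarolimus is its analog in which a tetrazole replaces a hydroxyl. Drug doses are not given in the sources. Every pig had a single stent type in both of its arteries, so all arteries share angioplasty and a stent, no artery without a stent was analysed here, and a difference between stent types cannot be told apart from a difference between pairs of pigs. Arrays 1 and 2 of each stent type came from one pig and arrays 3 and 4 from the other. ZES 2, ZES 4, SES 4, BMS 2 and BMS 4 were the left anterior descending artery (LAD), SES 1 was the left circumflex artery, and the other arrays were the right coronary artery (RCA).

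The values are deposited log2 signals, and a difference of 1 is a factor of 2 in signal. The background level of an array was set at the 95th percentile over its 59 controls whose target was not added to the sample. It lay between 4.19 and 5.16 on the ZES arrays, between 4.15 and 5.39 on the SES arrays and between 5.27 and 5.96 on the BMS arrays. The share of probe sets above it was 61.0% to 74.5%. The GAPDH control for RNA integrity (3′ minus 5′ signal) was 3.44 to 3.91 for ZES, 2.33 to 3.02 for SES and 3.64 to 4.63 for BMS. The 28S ribosomal RNA control stood at 14.10 on ZES 2 and 14.57 on BMS 1, against 6.95 to 10.74 on the other arrays. The spike-in controls were at 14.60 to 15.91 with ZES, 14.62 to 15.60 with SES and 15.74 to 16.52 with BMS, so SES and BMS did not overlap. Between 490 and 1153 probe sets were listed at 0 on the ZES arrays, 289 to 865 on the SES arrays and 41 to 280 on the BMS arrays. Precision is limited by there being 12 arrays and 6 pigs.

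S100A8 had the widest range of the 4 genes. Its log2 signal was 11.77, 3.97, 11.39 and 11.56 on ZES 1 to 4. It was 11.34, 12.35, 8.91 and 6.35 on SES 1 to 4, and 1.92, 3.75, 4.71 and 7.74 on BMS 1 to 4. In words, 3 ZES arrays and 2 SES arrays were high, SES 3 and SES 4 were intermediate, and ZES 2 sat among the BMS arrays. The signal was above background on 3 of 4 ZES arrays, 4 of 4 SES arrays and 1 of 4 BMS arrays, so most of the BMS values lie in the range of empty probe sets. The group means were 9.67 ± 3.80 for ZES, 9.74 ± 2.68 for SES and 4.53 ± 2.43 for BMS (SD, n = 4 arrays each). The ZES and BMS ranges overlapped through ZES 2, and the SES and BMS ranges through SES 4 and BMS 4. S100A8 also moved with the array controls: over the 12 arrays its r was -0.738 with the 28S signal, -0.736 with the background level, -0.559 with the spike-in controls, and 0.811 with the number of probe sets listed at 0. These r describe arrays that share pigs and stent types, and the part of the controls in the S100A8 values was not tested beyond the fits given below.

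S100A9, the partner of S100A8 in calprotectin, covered a narrower range. It measured 7.26, 4.83, 8.67 and 9.77 on ZES 1 to 4, with ZES 2 just under its background. The SES arrays 1 to 4 gave 8.74, 10.01, 5.87 and 6.81, and the BMS arrays 1 to 4 gave 5.39, 2.26, 6.54 and 5.78. BMS 2 was the lowest array for this gene, whereas BMS 1 was the lowest for the other 3. Group means were 7.63 ± 2.13 for ZES, 7.86 ± 1.87 for SES and 4.99 ± 1.89 for BMS (SD, n = 4), and 3, 4 and 2 arrays of these groups were above background. The ranges of all 3 stent types overlapped.

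S100A12, the third calgranulin, was above background on all 8 arrays of drug-eluting stents and on 3 of 4 BMS arrays. Its signal was 11.98, 6.56, 12.57 and 13.16 on ZES 1 to 4. The SES arrays 1 to 4 gave 13.15, 13.65, 10.81 and 9.05, and the BMS arrays 1 to 4 gave 5.71, 7.38, 8.85 and 10.78. As for S100A8, ZES 2 was far below the other ZES arrays, SES 4 was lowest among SES and BMS 4 was highest among BMS. Group means were 11.07 ± 3.04 for ZES, 11.67 ± 2.14 for SES and 8.18 ± 2.16 for BMS (SD, n = 4), and the ranges overlapped.

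MMP9 was above background on every array. Its signal was 14.42, 8.89, 12.73 and 12.25 on ZES 1 to 4, where ZES 1 was the highest array of the study and ZES 2 was close to the lowest BMS arrays. It was 10.82, 12.46, 11.10 and 11.20 on SES 1 to 4, a spread much narrower than in the other groups. The BMS arrays 1 to 4 gave 8.50, 8.58, 9.78 and 11.88, and BMS 4 exceeded 3 of the SES arrays. Group means were 12.07 ± 2.32 for ZES, 11.39 ± 0.73 for SES and 9.68 ± 1.58 for BMS (SD, n = 4). In bulk tissue, fewer cells of a type and less RNA per cell cannot be told apart for any of these genes.

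**Figure D1:**
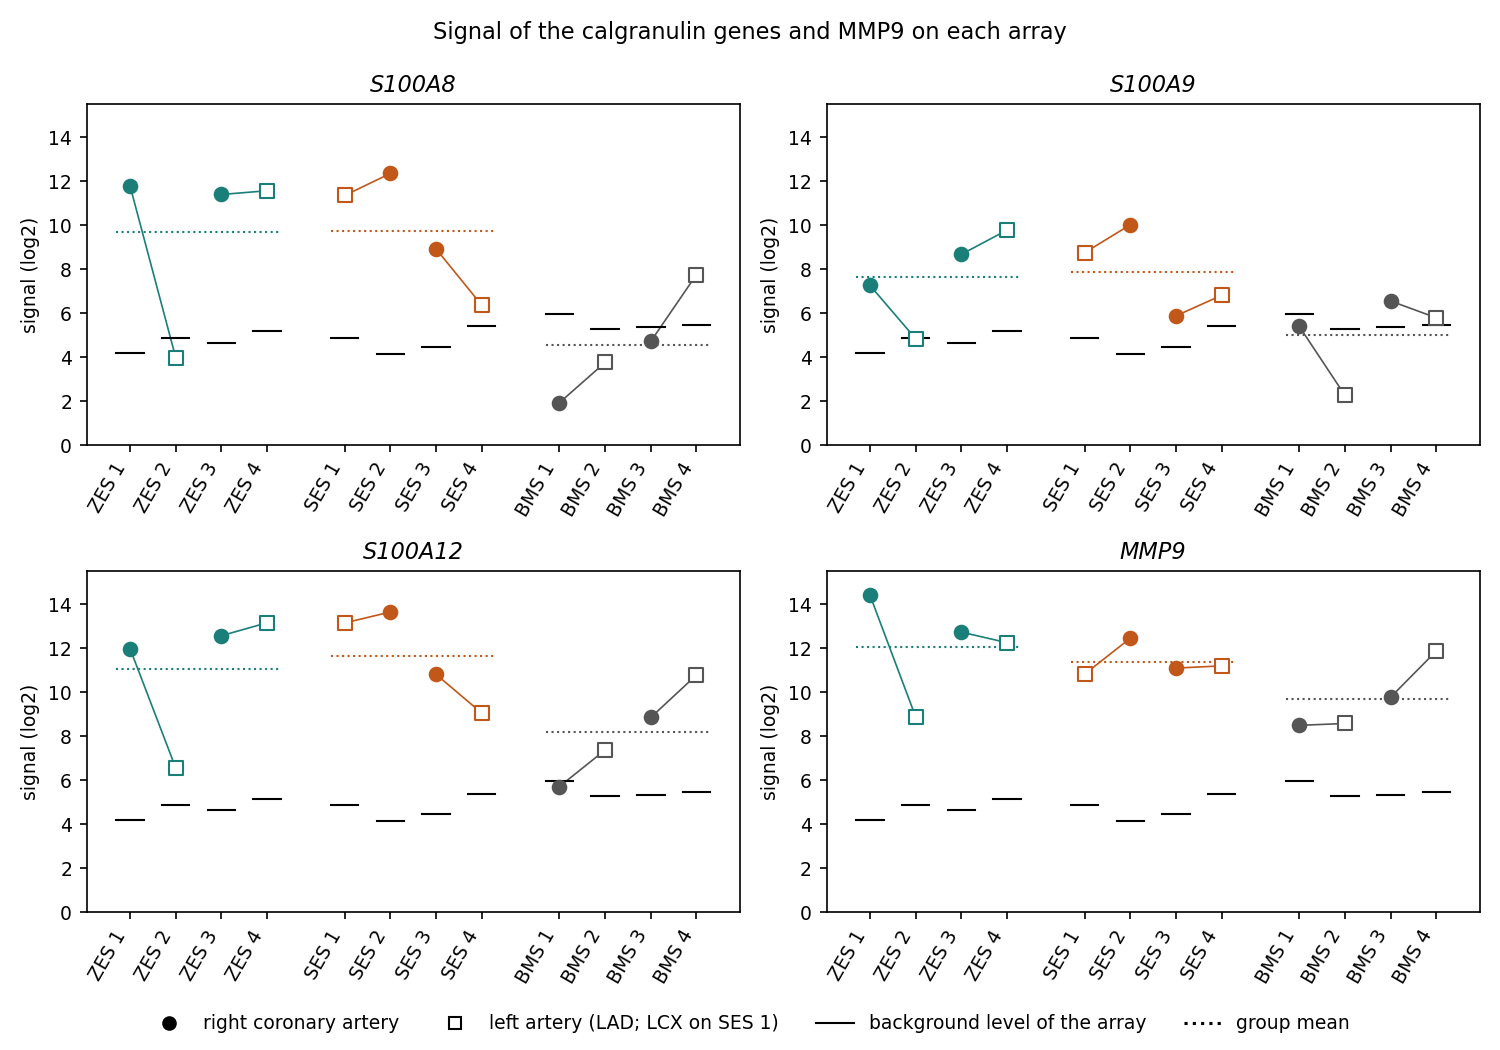
Log2 signal of S100A8, S100A9, S100A12 and MMP9 on each array, by stent type; lines join the 2 arteries of a pig, filled circles are the right coronary artery and open squares a left artery. Short black bars mark each array's background and dotted lines the group means; ZES 2 lies far below the other ZES arrays for S100A8 (3.97), S100A12 (6.56) and MMP9 (8.89).

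Zotarolimus-eluting against bare metal stents showed a higher mean of all 4 genes with ZES, but none passed the test. S100A8 differed by 5.14 ± 1.58 on the log2 scale (estimate ± SE), with a 95% interval of 1.81 to 8.47 and an adjusted p of 0.405 in limma. The other calgranulins differed by 2.64 ± 1.10 (S100A9, interval 0.31 to 4.96, limma adjusted p = 0.498) and 2.88 ± 1.29 (S100A12, interval 0.17 to 5.60, limma adjusted p = 0.529). MMP9 differed by 2.39 ± 0.87 (interval 0.55 to 4.23, limma adjusted p = 0.446). The count of called genes was therefore 0 of 4, and the share called among all 16799 probe sets was also 0%. At an unadjusted p under 0.05 all 4 passed on the higher side, as did 4.72% of all probe sets; 8.99% of all probe sets passed in either direction.

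By size, the S100A8 difference ranked 2 from the highest of the 16799 probe sets, S100A12 ranked 99, S100A9 155 and MMP9 221. Back-transformed, the ratio of geometric means was 7.39 for S100A12 and 5.24 for MMP9. No ratio is given for S100A8 and S100A9, since only 1 and 2 of their 4 BMS values were above background. When values were raised to the background of their array, a setting chosen after seeing the data, the differences were 3.82 for S100A8 and 1.75 for S100A9 (limma adjusted p = 0.248 and 0.433). In each of the 4 genes, 3 of the 4 ZES arrays were above every BMS array, and no gene had ZES and BMS ranges that were fully apart, as 3.82% of all probe sets had. Without ZES 2 the differences were 7.04 for S100A8, 3.55 for S100A9, 4.38 for S100A12 and 3.47 for MMP9, and none passed. Without the arrays of highest 28S signal, ZES 2 and BMS 1, they were 6.17, 3.70, 3.56 and 3.05 in the same gene order, and none passed.

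Sirolimus-eluting against bare metal stents gave differences of like size, again with none past the threshold. S100A8 was higher by 5.20 ± 1.58 with SES (interval 1.87 to 8.53, limma adjusted p = 0.129), and all 4 SES arrays were above its background level. S100A12 was higher by 3.48 ± 1.29 (interval 0.76 to 6.20, limma adjusted p = 0.210) and S100A9 by 2.87 ± 1.10 (interval 0.54 to 5.19, limma adjusted p = 0.230). MMP9 was higher by 1.71 ± 0.87, and here the interval of -0.13 to 3.55 includes 0 (limma adjusted p = 0.387). So 0 of 4 genes were called, against 0.679% of all probe sets. At an unadjusted p under 0.05, 3 of the 4 passed on the higher side, against 7.33% of all probe sets; 14.3% of all probe sets passed in either direction.

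The ratio of geometric means was 11.2 for S100A12 and 3.27 for MMP9. With values raised to background, the differences were 3.66 for S100A8 and 1.97 for S100A9 (limma adjusted p = 0.131 and 0.247). By size S100A8 ranked 9, S100A12 82, S100A9 194 and MMP9 755 from the highest. Without ZES 2 and BMS 1 the SES minus BMS differences were 4.33 for S100A8, 2.99 for S100A9, 2.66 for S100A12 and 1.31 for MMP9, and none passed. For each calgranulin, 3 of the 4 SES arrays were above every BMS array, while for MMP9 only SES 2 was. No gene had SES and BMS ranges that were fully apart, as 8.74% of all probe sets had. S100A8 crossed the threshold in 3 settings. These were array weights (5.97, limma adjusted p = 0.0245), the fit without SES 4 (6.37, limma adjusted p = 0.0443) and the fit without the pig of ZES 1 and ZES 2 (5.20, limma adjusted p = 0.0403). The last setting leaves the SES and BMS arrays as they were and changes only the pooled estimate of spread. Both comparisons share the 4 BMS arrays, so their agreement in sign is not independent. SES and BMS arrays also lay apart in the GAPDH and spike-in controls and in the number of probe sets listed at 0. ZES and BMS arrays lay apart in that number and in the background level, and ZES and SES arrays in the GAPDH control. With the GAPDH control as a covariate S100A8 gave 6.81 for SES and 5.69 for ZES over BMS (limma adjusted p = 0.805 and 0.564). With the level of the spike-in controls as covariate the S100A8 differences were 5.01 and 4.98 (limma adjusted p = 0.831 and 0.934).

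**Figure D2:**
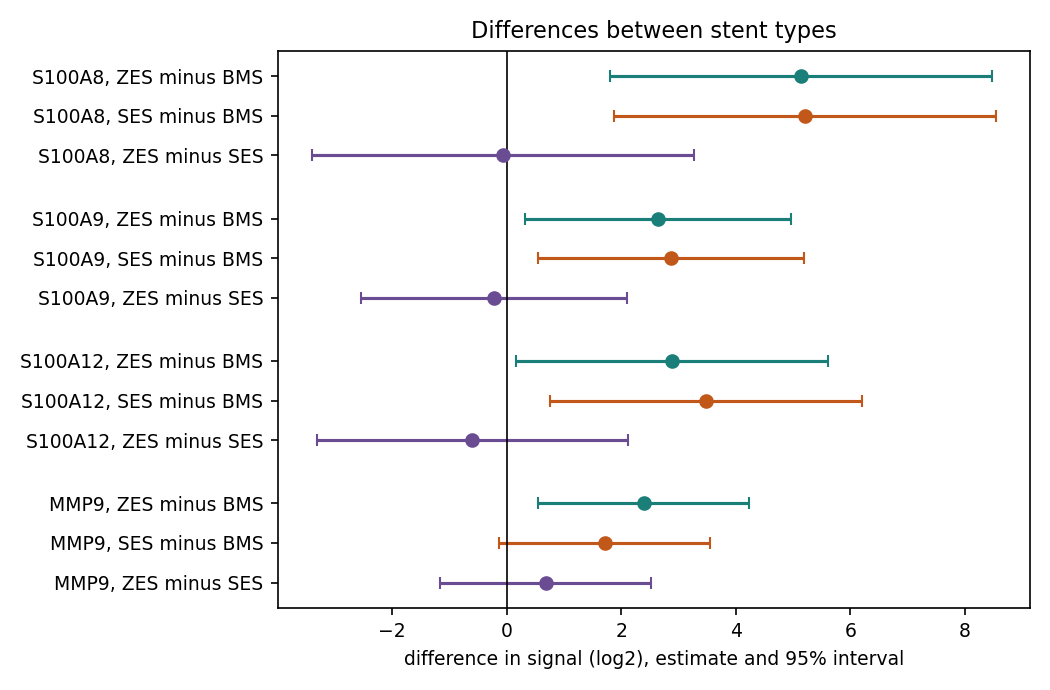
Difference in log2 signal between stent types for each gene, with points for limma estimates and bars for 95% intervals. The intervals against BMS lie above 0 except for MMP9 with SES (-0.13 to 3.55), and the ZES minus SES intervals all span 0. No adjusted p was under 0.05. The intervals measure mostly the spread between segments, since each stent type rests on 2 pigs.

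**Figure D3:**
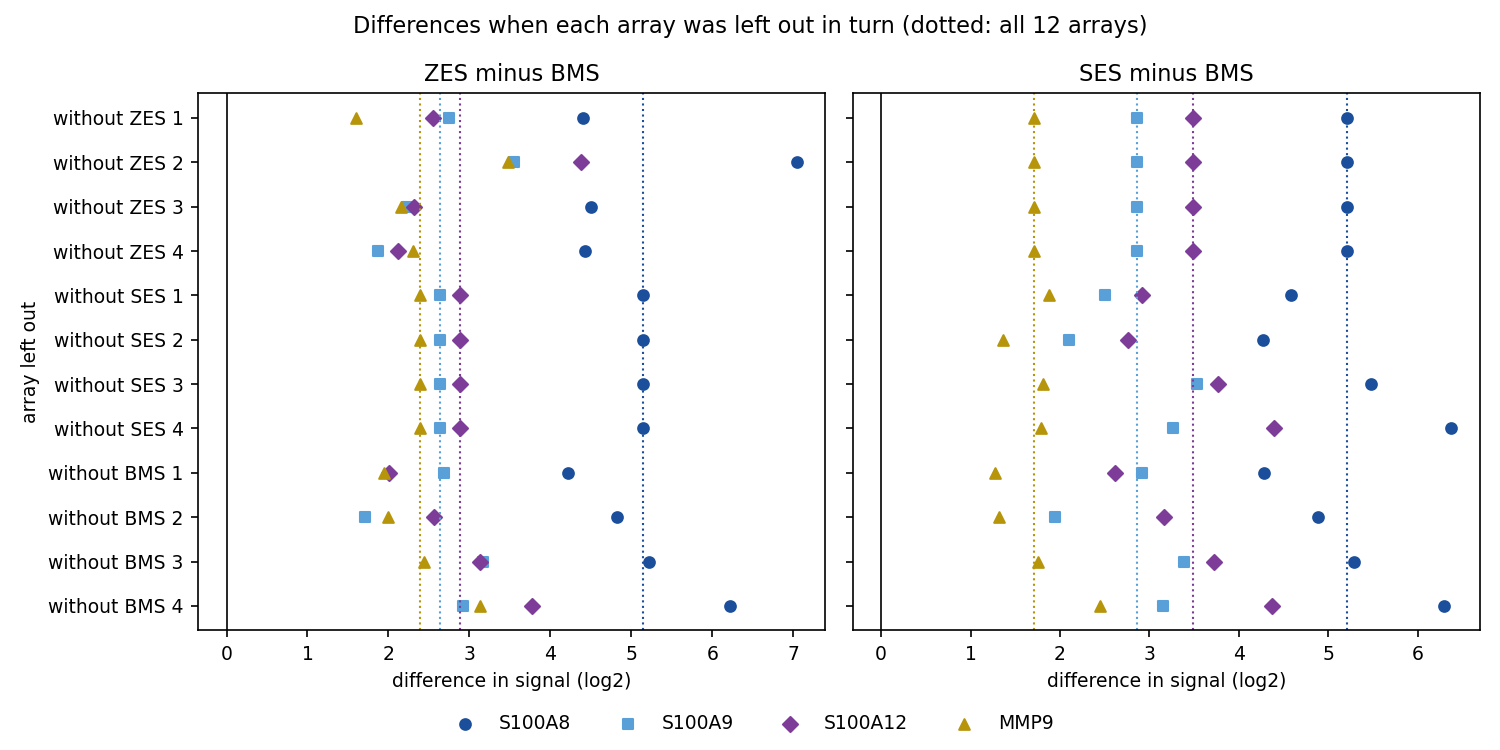
Difference in log2 signal of the 4 genes from BMS for ZES (left) and SES (right) after each array was left out in turn; dotted lines give the values with all 12 arrays. All points stay above 0, and S100A8 in ZES minus BMS moves most without ZES 2 (7.04 against 5.14).

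The direct comparison of the drug-eluting stents, which carry sirolimus and its tetrazole analog at doses not given, called none of the 4 genes. ZES minus SES was -0.066 ± 1.58 for S100A8 (interval -3.40 to 3.26, limma adjusted p = 0.993) and -0.23 ± 1.10 for S100A9 (interval -2.55 to 2.10, limma adjusted p = 0.968). It was -0.60 ± 1.29 for S100A12 (interval -3.32 to 2.12, limma adjusted p = 0.925) and 0.68 ± 0.87 for MMP9 (interval -1.16 to 2.52, limma adjusted p = 0.851). The share called among all probe sets was 0.0714%. At an unadjusted p under 0.05, 0 of the 4 passed, against 10% of all probe sets, and 0 of the 4 had ranges fully apart, against 6%. These intervals are wide and leave room for a difference of several log2 units either way, so they do not show that the stents act alike. The sign depended on single arrays: without ZES 2 the differences were 1.84 for S100A8, 0.69 for S100A9, 0.90 for S100A12 and 1.76 for MMP9. Across the 3 stent types together, the F test gave limma adjusted p-values of 0.178 for S100A8, 0.323 for S100A9, 0.323 for S100A12 and 0.335 for MMP9. It called 0 of the 4 genes, against 0.345% of all probe sets, and all 4 had an unadjusted p under 0.05, against 13.4%.

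The spread within pigs was as large as many differences between stents. In the pig of ZES 1 and ZES 2 the LAD was lower than the RCA by 7.80 for S100A8, 5.42 for S100A12, 5.53 for MMP9 and 2.43 for S100A9. In the other ZES pig the arteries differed by at most 1.10, with LAD minus RCA of 0.17 for S100A8, 1.10 for S100A9, 0.59 for S100A12 and -0.48 for MMP9. In the SES pig with both arteries, LAD minus RCA was -2.56 for S100A8, 0.93 for S100A9, -1.76 for S100A12 and 0.10 for MMP9. In the pig of BMS 1 and BMS 2 the LAD minus RCA values were 1.83 for S100A8, -3.13 for S100A9, 1.66 for S100A12 and 0.085 for MMP9. In the pig of BMS 3 and BMS 4 they were 3.03, -0.76, 1.93 and 2.10 in the same gene order. The LAD was thus higher in both BMS pigs for S100A8, S100A12 and MMP9 but not for S100A9.

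Over the 5 pigs with both arteries, LAD minus RCA was -1.07 ± 1.20 for S100A8, -0.86 ± 0.75 for S100A9, -0.60 ± 0.84 for S100A12 and -0.74 ± 0.77 for MMP9 (estimate ± SE). The limma adjusted p-values were 0.866, 0.818, 0.897 and 0.851, so 0 of 4 genes were called, against 0% of all probe sets. At an unadjusted p under 0.05, 0 of 4 passed, against 6.86% of all probe sets. Without the pig of ZES 1 and ZES 2 the values turned to 0.62 for S100A8, 0.60 for S100A12 and 0.45 for MMP9, none of which passed. The mean of the 2 arteries of a pig ranged between 2.84 and 11.84 for S100A8. The pig of SES 1 and SES 2 (11.84) and the pig of ZES 3 and ZES 4 (11.47) were highest. The other ZES pig (7.87), the other SES pig (7.63) and the pig of BMS 3 and BMS 4 (6.23) were close together, and the pig of BMS 1 and BMS 2 (2.84) was lowest.

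The calgranulins varied together across pigs. Over the 6 pig means, Pearson's r was 0.981 for S100A8 with S100A9, 0.974 for S100A8 with S100A12 and 0.996 for S100A9 with S100A12. The exact permutation p-values over all 720 pairings, two-sided and adjusted over the 6 pairs of genes, were 0.0146, 0.0146 and 0.00833 (unadjusted 0.00972, 0.00833 and 0.00139). Spearman's rho was 0.83, 0.83 and 1, with exact permutation p = 0.0583, 0.0583 and 0.00278 (adjusted 0.0875, 0.0875 and 0.0167). Without the 2 pigs farthest from the median of the first gene, r was 0.942, 0.903 and 0.995. When values were raised to the background of their array, r over the 6 pigs was 0.958, 0.939 and 0.934. Without the 2 farthest pigs, there those of SES 1 and SES 2 and of ZES 3 and ZES 4, r was then 0.686, 0.696 and 0.974. With any single pig left out, the adjusted exact permutation p reached 0.117, 0.117 and 0.05 at its highest. These pigs come from 3 stent types, so the relation includes the differences between types.

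MMP9 followed the calgranulins less closely. Its r over the pig means was 0.900 with S100A8 (rho 0.83), 0.844 with S100A9 (rho 0.54) and 0.845 with S100A12 (rho 0.54). The exact permutation p-values of r were 0.00833, 0.0333 and 0.0375, and 0.0146, 0.0375 and 0.0375 after adjustment. Those of rho were 0.0583, 0.297 and 0.297 (exact permutation, adjusted 0.0875, 0.297 and 0.297), so by ranks no relation of MMP9 passed. Without the 2 farthest pigs r was 0.968, 0.951 and 0.799. With any single pig left out, the adjusted exact permutation p of r reached 0.125, 0.292 and 0.292. Whether r with MMP9 differs between the calgranulins, or from the r among them, was not tested.

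Across the 12 arrays the order of closeness by Pearson's r was another one, and MMP9 was closer to S100A8 than S100A9 was. Arteries of a pig share an animal here, so no p is given. S100A8 and S100A12 had r = 0.979 across arrays and 0.986 after each stent type was centred on its mean, so the pair tracked each other within stent types as well. S100A8 with S100A9 had 0.816 and 0.693 after centring, and S100A9 with S100A12 had 0.832 and 0.744. S100A8 with MMP9 had 0.878 and 0.841, S100A12 with MMP9 0.828 and 0.790, and S100A9 with MMP9 0.681 and 0.545. S100A8, S100A12 and S100A9 are next to each other in this order in the RefSeq annotation of the pig (Sscrofa11.1), with 0 annotated genes between them.

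**Figure D4:**
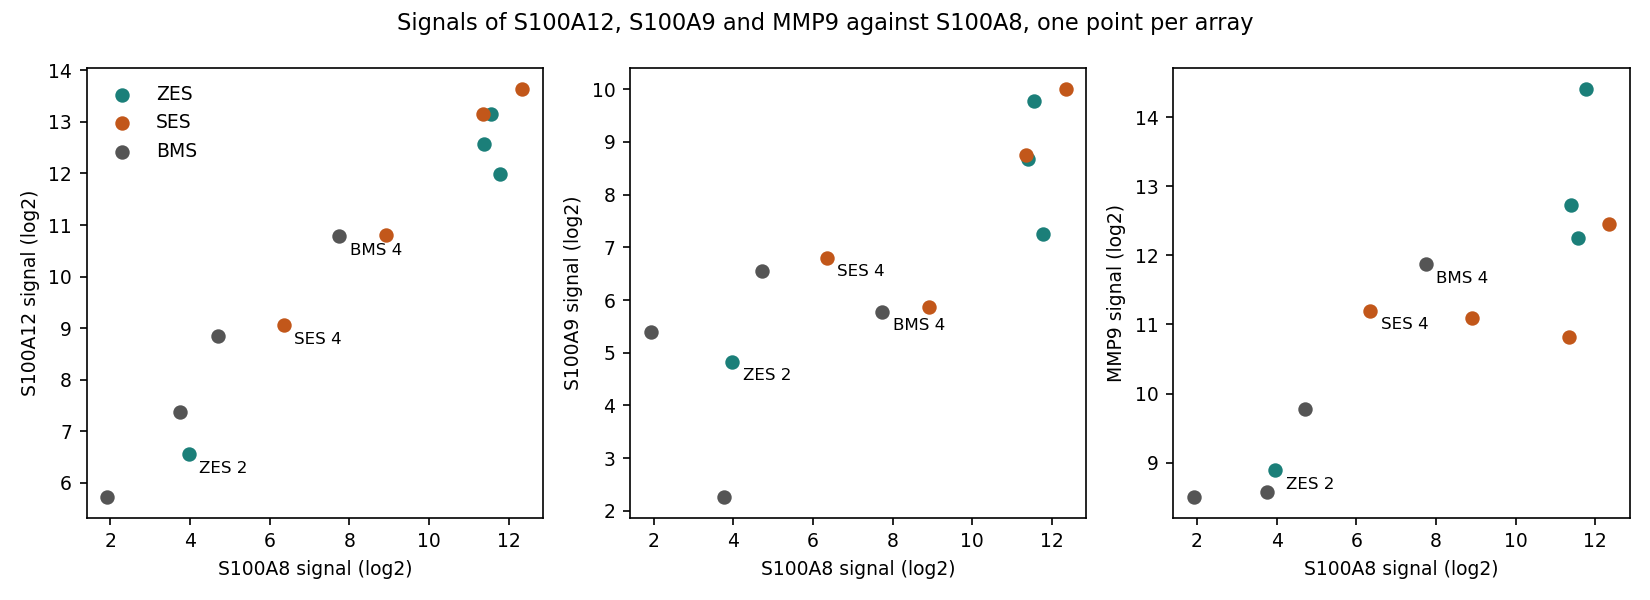
Log2 signal of S100A12, S100A9 and MMP9 against that of S100A8 on the 12 arrays, coloured by stent type. S100A12 lies along a line with S100A8 (r = 0.979), S100A9 (r = 0.816) and MMP9 (r = 0.878) scatter more, and ZES 2 falls among the BMS arrays.

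Other genes followed the 4 closely across the 12 arrays. Out of 5792 other named genes, those most like S100A8 by Pearson's r were S100A12 (0.979), SOD2 (0.947), MCL1 (0.924), LOC100154873 (0.914) and AGTPBP1 (0.912). SOD2 is the mitochondrial superoxide dismutase and MCL1 a survival factor of the BCL2 family. The genes most like S100A12 were S100A8, then TSPAN17 (0.945), SOD2 (0.934), SELENOT (0.930) and MCL1 (0.928). SOD2 and MCL1 were therefore named for both, and after centring within stent types SOD2 kept 0.957 with S100A8 and 0.955 with S100A12.

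S100A9 had a different set of nearest genes by Pearson's r. They were ANXA2 (0.903), a calcium-dependent membrane-binding annexin, PLEKHA8 (0.894), the actin-capping protein gene CAPG (0.893), NDUFAF1 (0.881) and PADI2 (0.865), an enzyme that citrullinates proteins. S100A12 ranked 11 and S100A8 ranked 17 in its list, while MMP9 ranked 132. By Spearman's rho, S100A12 (0.916) was level with ANXA2 (0.916) and above PLEKHA8 (0.909), CAPG (0.888), NDUFAF1 (0.895) and PADI2 (0.895). S100A9 values below background, such as 2.26 on BMS 2, entered these r as they were. The genes most like MMP9 were FBXO11 (0.891), TMEM41B (0.891), S100A8 (0.878), the leukocyte actin-bundling gene LCP1 (0.878) and AGTPBP1 (0.876), and S100A12 ranked 16 and S100A9 190. SOD2 and MCL1 differed from BMS by less than the calgranulins did. SOD2 averaged 12.65 ± 0.67 with ZES, 13.09 ± 0.44 with SES and 11.65 ± 0.56 with BMS (SD, n = 4). SOD2 differed by 1.0 ± 0.36 for ZES minus BMS (limma adjusted p = 0.428) and by 1.45 ± 0.36 for SES minus BMS (limma adjusted p = 0.0688). MCL1 differed by 0.38 ± 0.25 in both comparisons (limma adjusted p = 0.680 and 0.514).

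**Figure D5:**
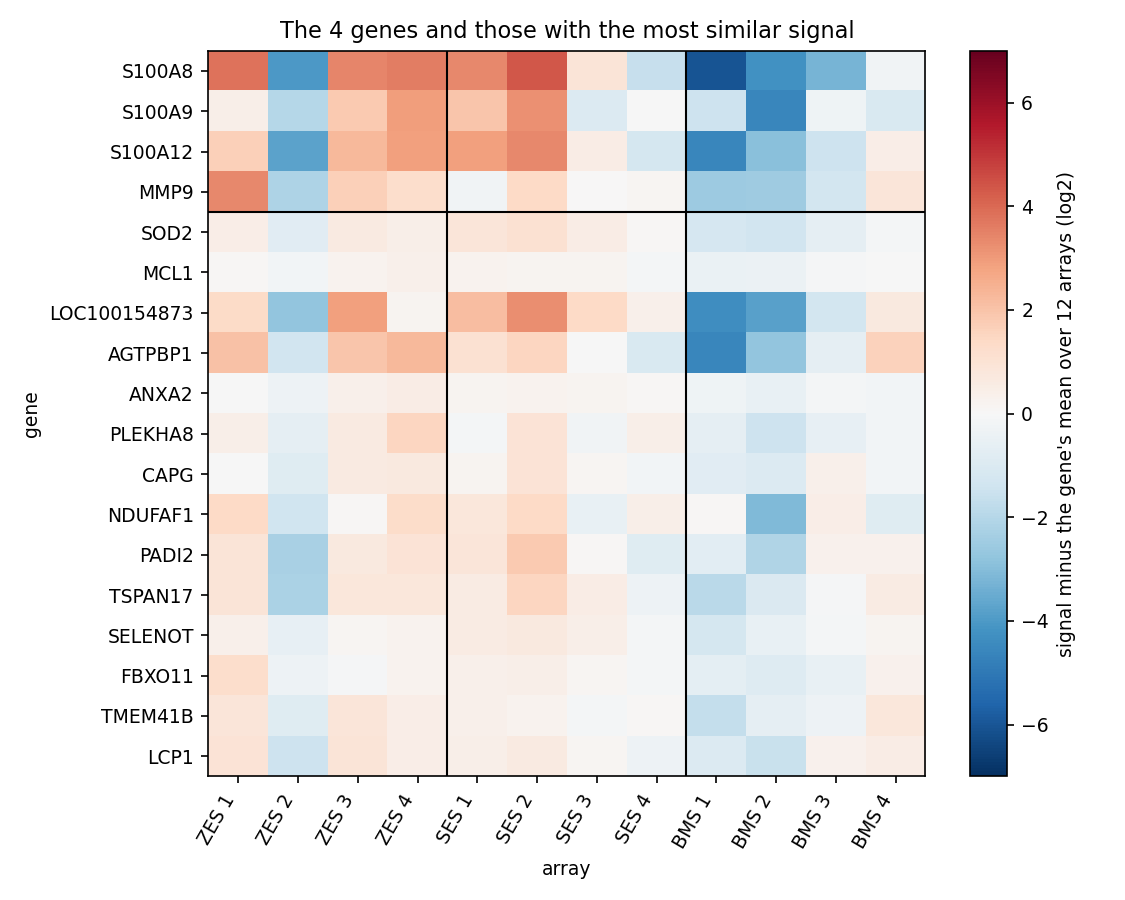
Log2 signal minus the gene's mean over the 12 arrays, as colour, for the 4 genes (above the line) and the genes with the highest Pearson's r to any of them (below it), with arrays ordered ZES, SES and BMS. ZES 2, BMS 1 and BMS 2 lie below the gene's mean in most rows, faintly in rows of narrow range. SOD2 shows the pattern of S100A8 at a smaller amplitude, while MCL1 spans only 10.76 to 11.57 and is nearly without colour.

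Other markers of neutrophils were few on this array. The receptors CSF3R and CXCR2 and the granule enzyme MPO were not named alone on any probe set. LTF, the granule protein lactoferrin, averaged 2.35 ± 2.11 with ZES, 3.21 ± 2.29 with SES and 3.41 ± 1.81 with BMS (SD, n = 4), and was above background on 0, 2 and 0 arrays. The brighter probe set of ITGAM, the integrin of myeloid cells, averaged 3.43 ± 1.84, 4.58 ± 1.34 and 3.31 ± 2.28 (SD, n = 4) in the same order of stents and was above background on 1, 2 and 0 arrays. Of 47 listed neutrophil granule and surface genes other than the 4, 18 had a probe set and 12 were tested.

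None of these 12 was called in any comparison. Their median difference was 0.40 for ZES minus BMS, with 7 of 12 above 0, and -0.30 for SES minus BMS, with 5 of 12 above 0. Over all 5793 named genes tested the medians were 0.012 and -0.0064. The mean log2 signal of the list was 5.99 to 6.35 with ZES, 6.28 to 7.04 with SES and 5.58 to 6.62 with BMS, and NCF4 was listed at 0 on a ZES array and ELANE on an SES array. Its summed linear signal was 9555 to 22492 with ZES, 22491 to 43977 with SES and 8242 to 12652 with BMS. The SES sums were all above the BMS sums, and over the 12 arrays the list mean had r = 0.344 with S100A8. Single genes ranged widely. CHI3L1, a chitinase-like protein of neutrophil granules and macrophages, was 2.29 ± 0.53 higher with SES than BMS (limma adjusted p = 0.0569). NCF1, a subunit of the phagocyte oxidase, was 1.43 ± 0.42 higher (limma adjusted p = 0.120). ARG1, arginase, was 5.49 ± 1.51 higher with SES than BMS (limma adjusted p = 0.0997), and ITGB2, the leukocyte integrin beta chain, was 3.16 ± 0.82 higher (limma adjusted p = 0.0823). With ZES, ARG1 and ITGB2 were 3.21 ± 1.51 and 2.20 ± 0.82 above BMS (limma adjusted p = 0.556 and 0.456). CHI3L1, NCF1, ARG1 and ITGB2 were among the 5 of 12 above 0 for SES minus BMS, and the rest of the list lay below 0. TREM1, an activating receptor of neutrophils and monocytes, was at -3.80 ± 0.94 for ZES minus BMS (limma adjusted p = 0.360), and BPI, a granule protein that binds endotoxin, at -1.61 ± 0.85 (limma adjusted p = 0.606). TREM1 and BPI also had lower means with SES than with BMS. The cell type that carried the signal of the 4 genes was not tested.

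Markers of other cells that can make these genes were also listed. Of 16 tested monocyte and macrophage markers, none was called, and the medians were -0.53 for ZES minus BMS and -0.17 for SES minus BMS. Of the 16, 6 were above 0 for ZES minus BMS and 7 for SES minus BMS. CD163, the haemoglobin scavenger receptor of macrophages, is in the fixed panel and was among these. It was 0.63 ± 0.45 higher with ZES and 0.85 ± 0.45 higher with SES than with BMS (limma adjusted p = 0.709 and 0.411). The 7 osteoclast markers had medians of -0.25 and -0.30, and 5 tested epithelial and keratinocyte markers had 0.75 and -0.60.

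Lists of T cell and smooth muscle markers were set beside the 4 genes. Of 9 T and NK cell markers, 2 rose in SES over BMS, while 39 of all 5793 named genes tested rose and 13 fell. CD3E, part of the antigen receptor of T cells, rose by 4.90 ± 0.83 (limma adjusted p = 0.0172). SH2D1A, a T and NK cell adaptor, rose by 3.72 ± 0.75 (limma adjusted p = 0.0290). CD3E was above background on 4 of 4 ZES arrays, 4 of 4 SES arrays and 0 of 4 BMS arrays, and SH2D1A on 3, 4 and 1. The list's median was 1.19 for ZES minus BMS and 2.04 for SES minus BMS. In the list of epithelial markers UPK1B, a urothelial membrane protein, rose by 4.32 ± 0.95 in SES over BMS (limma adjusted p = 0.0455). UPK1B was above background on 4 of 4 SES arrays and 0 of 4 BMS arrays. Among 14 endothelial markers GJA4, an arterial gap junction protein, fell by 2.87 ± 0.61 in SES over BMS (limma adjusted p = 0.0401). The endothelial list did not fall with it. For SES minus BMS 9 of the 14 were above 0 (median 0.39), and for ZES minus BMS 11 were (median 0.45). Without SES 1, SES 2 or SES 3, and with the GAPDH or spike-in covariate, 0 genes of these lists were called. Of the 15 smooth muscle contractile markers 0 were called. Their median was -0.30 for ZES minus BMS and -2.16 for SES minus BMS. The list's mean log2 signal was 10.27 to 12.97 with ZES, 9.33 to 12.02 with SES and 11.94 to 12.79 with BMS. Within ZES it was 12.97 on ZES 2, where the calgranulins were lowest, and 10.27 on ZES 1, where MMP9 was highest. Within SES it was 12.02 on SES 4, where S100A8 and S100A12 were lowest. The other genes did not follow this within SES. MMP9 was lowest on SES 1 (10.82), where the list's mean was also lowest (9.33), and S100A9 on SES 3 (5.87), where it was 9.62. The part of these cell types in the values of the 4 genes was not tested.

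Genes that act with the calgranulins gave no calls. The brightest probe set of TLR4, their receptor, differed by 0.31 ± 0.51 for ZES minus BMS and by 0.50 ± 0.51 for SES minus BMS (limma adjusted p = 0.898 and 0.694). A 2nd tested TLR4 probe set differed by 0.051 ± 0.95 and -0.93 ± 0.95 (limma adjusted p = 0.989 and 0.697). The TLR4 co-receptor CD14 differed by 1.01 ± 0.40 and 0.90 ± 0.40 (limma adjusted p = 0.484 and 0.308). Other list genes were lower with ZES than BMS, such as LY96 (-0.89 ± 0.31) and CASP1 (-1.25 ± 0.42, limma adjusted p = 0.424 for both). Across 11 tested genes of calgranulin receptors and signalling, none was called, 6 were above 0 for ZES minus BMS with a median of 0.016, and 7 were above 0 for SES minus BMS with a median of 0.50. The AGER probe set was removed by the filter on low signals.

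Cytokines that draw neutrophils differed between the drug-eluting stents in size, though not past the threshold. The brighter probe set of IL1B, the inflammasome cytokine interleukin-1 beta, averaged 5.02 ± 1.52 with ZES, 9.34 ± 1.28 with SES and 7.17 ± 1.75 with BMS (SD, n = 4). Its ZES minus SES difference was -4.32 ± 0.88 (limma adjusted p = 0.0660), while the calgranulins and MMP9 differed by at most 0.68 between these groups. A 2nd IL1B probe set averaged 5.28 ± 2.59, 9.73 ± 1.59 and 5.24 ± 3.34 (SD, n = 4), so there ZES was not below BMS. Its ZES minus SES difference was -4.45 ± 1.40 (limma adjusted p = 0.253). Both probe sets were above background on 2 of 4 ZES arrays. CXCL8, the main neutrophil chemokine, was 8.11, 6.30 and 6.21 on ZES 1, ZES 3 and ZES 4 and listed at 0 on ZES 2. It was 8.72, 9.90, 10.19 and 6.61 on SES 1 to 4, and 6.71, 5.43, 2.76 and 7.08 on BMS 1 to 4. SES minus BMS was 3.36 ± 1.35 (limma adjusted p = 0.258) and ZES minus SES was -3.70 ± 1.35 (limma adjusted p = 0.349). Of the 8 tested genes of this list 0 were called. Their median was -0.15 for ZES minus BMS, 1.92 for SES minus BMS and -1.85 for ZES minus SES.

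Of 12 tested transcription factors of the myeloid lineage, 1 was called, in SES over BMS. In that comparison 39 of all 5793 named genes tested rose and 13 fell. FOS, a subunit of AP-1, rose by 4.64 ± 0.78 in SES over BMS (limma adjusted p = 0.0167). Without SES 1, SES 2 or SES 3, or with the GAPDH or spike-in covariate, 0 genes of this list were called. FOS differed by 1.82 ± 0.78 for ZES minus BMS (limma adjusted p = 0.508). KLF4, a zinc finger factor of monocyte differentiation, was 1.81 ± 0.45 for SES minus BMS (limma adjusted p = 0.0761), and CEBPB, a factor of the myeloid acute-phase response, was 1.52 ± 0.76 (limma adjusted p = 0.380).

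The relatives of the 4 genes gave no calls. Among 7 tested probe sets under the symbols of other S100 genes (including S100PBP, which encodes a binding protein and is no S100 gene), 4 were above 0 for ZES minus BMS and 2 for SES minus BMS, with medians of 0.17 and -0.076. S100A4, a marker of motile fibroblast-like cells, was -1.54 ± 0.45 for SES minus BMS (limma adjusted p = 0.117) and -0.12 ± 0.45 for ZES minus BMS (limma adjusted p = 0.961). Among 4 other tested matrix metalloproteases the medians were -0.0051 for ZES minus BMS and -0.49 for SES minus BMS. MMP2, the other gelatinase, was -0.49 ± 0.30 and -0.073 ± 0.30 (limma adjusted p = 0.652 and 0.941).

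Of 13 tested inhibitors, activators and substrates of MMP9, 1 rose and 1 fell in SES over BMS. Of all 5793 named genes tested, 39 rose and 13 fell. TIMP1, the inhibitor that binds MMP9, gave 13.91, 14.45, 13.98 and 14.43 on SES 1 to 4, against 12.63, 13.15, 12.52 and 12.76 on BMS 1 to 4. These ranges do not overlap, and TIMP1 rose by 1.43 ± 0.29 (limma adjusted p = 0.0336). It averaged 13.61 ± 0.61 with ZES (SD, n = 4), and ZES minus BMS was 0.85 ± 0.29 (limma adjusted p = 0.425). COL4A2, a basement membrane collagen chain that MMP9 can cleave, fell in SES over BMS by 2.04 ± 0.45 on the log2 scale (limma adjusted p = 0.0471). Its SES 4 value (11.48) stood near the lowest BMS value (11.50), while the other SES arrays were at most 9.22. COL4A2 differed by -0.23 ± 0.45 for ZES minus BMS (limma adjusted p = 0.920). Without SES 1, SES 2 or SES 3, without BMS 1 or BMS 3, or with the GAPDH or spike-in covariate, 0 genes of this list were called.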

How the data were processed

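Total RNA of 12 stented coronary segments of 6 pigs was hybridised to pig arrays of 24123 probe sets. Per the submitters' processing notes, the authors computed the deposited log2 signals by MAS5 in Affymetrix Expression Console 5.0. The log base was read from the values, since 2 to their power has a trimmed mean (2% left out at each end) of 500.15 to 500.17 on every array. The lowest value is 0, which is a floor of the scale, and 41 to 1153 probe sets per array are listed there. No further normalization or pseudocount was applied.

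Of the probe sets other than 124 controls, those in the lowest 30% by mean signal were filtered out, leaving 16799. Names came from the platform annotation, in which 10069 probe sets have 1 symbol, 198 several and 13732 none. Where a gene had several, its brightest probe set stood for it.

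The stent comparisons used limma 3.58.1 (R 4.3.3, statmod 1.5.0) with the pig as a random block (consensus correlation -0.0322) and a variance trend. P-values are two-sided and adjusted by Benjamini-Hochberg over all 16799 probe sets at a threshold of 0.05. The artery comparison, LAD minus RCA, had the pig as a fixed term and used the 10 arrays of 5 pigs. Because each stent type rests on 2 pigs, p-values, SEs and intervals over arrays measure mostly the spread between segments. The procedure was tested on simulated arrays with independent noise and no effect of pigs. That test therefore cannot check how the fit handles 2 segments of a pig. The 4 genes and the gene lists were chosen with earlier results of these data known. Beyond the 4 genes, the text names a fixed panel, up to 4 called genes per list and the 5 genes most like each of the 4. Other list genes were named after their values were seen. The alternatives tried are given in the closing section.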

Additional observations from a re-analysis of the deposited data

Results flagged for a closer look

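S100A8 was 3.97 on ZES 2, against 11.39 to 11.77 on the other ZES arrays, and this gap exceeded Dixon's critical value at 95% for 4 samples. ZES 2 was likewise set apart as the lowest ZES array for SOD2 (11.7), AGTPBP1 (5.75), PADI2 (9.26) and TSPAN17 (6.90), which were named because they track the calgranulins or S100A9 across arrays. COL4A2 was set apart on SES 4, the highest SES array at 11.5. In all, 96 groups of 4 arrays were examined in this way, and chance sets apart about 5% of groups. The groups named here are all that were set apart, a share close to that of chance.

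For MMP9, the LAD was below the RCA in both ZES pigs (mean difference -3.0) and above it in both BMS pigs (mean difference 1.09). This difference between the stent types was not tested, and the ZES mean rests largely on ZES 2.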

How the results depend on the processing

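For ZES minus BMS and SES minus BMS, each of the 4 genes kept its sign in every alternative run, and no alternative called a gene in ZES minus BMS, ZES minus SES or LAD minus RCA. With array weights, 1 gene was called in SES minus BMS, S100A8 (5.97), and 1 in the F test, S100A8 (adjusted p = 0.0385). Leaving out an array or a pig gave 0 to 1 called genes in both. The S100A8 difference, SES minus BMS, then ranged from 3.10 to 7.31, and its F test adjusted p from 0.0416 to 0.559.

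ZES minus SES changed sign easily. S100A8 was 0.20 with a pseudocount of 32, 0.16 with values raised to background and 1.83 without the arrays of highest 28S signal; S100A9 was 0.045 with array weights, and S100A9 and S100A12 were 0.71 and 0.91 without those arrays. MMP9 was -0.73 with the GAPDH covariate. Leaving out an array or pig gave ranges of -2.17 to 2.04 for S100A8, -1.81 to 1.36 for S100A9, -2.40 to 1.2 for S100A12 and -0.12 to 1.76 for MMP9. LAD minus RCA ranged over -2.09 to 0.62 for S100A8, -1.23 to 0.60 for S100A12 and -1.46 to 0.45 for MMP9. The cause was not tested.

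The correlation of S100A9 and MMP9 over pig means was 0.755 with the pseudocount and 0.665 with values raised to background, and did not pass in either. With 5 of the 6 pigs, r was 0.966 to 0.994 for S100A8 and S100A9, 0.943 to 0.991 for S100A8 and S100A12, 0.796 to 0.965 for S100A8 and MMP9, 0.994 to 0.998 for S100A9 and S100A12, 0.712 to 0.920 for S100A9 and MMP9, and 0.635 to 0.930 for S100A12 and MMP9. No paired analysis was possible because, for the stent comparisons, each pig had a single stent type and the labels give no replicate numbers; LAD minus RCA was paired within pigs. Signal near background limits S100A8 and S100A9 in the BMS group.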
